A study of Mus musculus with 8 samples.

Results

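Transcripts of 10 genes of early myeloid differentiation were followed in hematopoietic stem cells of elektra and wildtype mice: the granule protein genes Mpo, Elane, Prtn3, Ctsg, Lyz1 and Lyz2, the transcription factor genes Cebpa and Cebpe, and the growth factor receptor genes Csf3r and Csf1r. They were taken by symbol from the 30802 different symbols of an Affymetrix expression table, and each of the 10 had 1 feature. The elektra samples came from mice homozygous for the elektra allele of Slfn2 (Slfn2 elektra/elektra), a germline loss-of-function mutation, and the wildtype samples from littermates homozygous for the wildtype allele (Slfn2 wt/wt), all on a C57Bl/6 background and untreated. Each genotype had 4 arrays, 1 per sample. By the sample notes each sample pooled the bones of 2 mice, but the series text counts 4 mice per genotype. No age is given in the sources used here. The sort took LSK cells (without lineage markers, with Sca-1 and c-Kit) of bone marrow enriched for c-Kit that were CD9hi, CD150+ and CD48-.

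Neutrophils and monocytes carry their proteases in granules that are filled in stages. Myeloperoxidase (Mpo), neutrophil elastase (Elane), proteinase 3 (Prtn3) and cathepsin G (Ctsg) are made at the promyelocyte stage and stored in azurophil granules, while lactoferrin and other late granule proteins follow at later stages. Stem cells are known to carry low levels of lineage transcripts before commitment, which is called priming. C/EBPα, the product of Cebpa, starts the granulocyte program and C/EBPε, the product of Cebpe, acts in its late steps. The receptors for granulocyte and macrophage colony-stimulating factor are encoded by Csf3r and Csf1r.

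Values are log2 signals made by the authors with RMA, a method that corrects background, normalizes arrays by quantiles and summarizes the probes of a feature, so a difference of 1 is a 2-fold change. Array medians lay between 6.11 and 6.26. Genes were tested where their mean over the 8 arrays reached the median of the feature means, 6.17. Elane, Prtn3, Ctsg, Lyz2, Cebpe, Csf3r and Csf1r passed this level filter, and Mpo, Lyz1 and Cebpa lay below it and were taken from the same fit without the filter. The labelled cell type was checked against markers: 10 of 11 stem cell markers passed the filter, the exception being Cd48, which the sort selects against, while 7 of 7 markers of T and NK cells, 8 of 8 of mast cells, basophils and eosinophils and 7 of 8 of B cells lay below it. Other lists passed in part: 6 of 7 megakaryocyte, 5 of 7 stromal and endothelial, 3 of 6 measured erythroid and 5 of 13 monocyte and macrophage markers. Of all 30802 symbols 15710 passed, so passing alone does not mark a cell type. The Slfn2 transcript, which a point mutation need not lower, did not pass the test between genotypes (elektra 8.17, 7.90, 7.79 and 8.08, wildtype 7.48, 7.22, 7.53 and 8.41, limma adjusted p = 0.598).

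No difference between elektra and wildtype stem cells passed the adjusted threshold for any of the 10 genes. With limma, 0 of 10 passed an adjusted p of 0.05, where 6 of 15710 genes tested (0.0382%) did, or 3 of 30802 (0.00974%) without the level filter. At an unadjusted p of 0.05, Ctsg passed and the other 9 did not, where 11% of the genes tested passed, 3.95% as lower in elektra (without the level filter, 8.72% and 4.7%). Ctsg, Elane, Mpo and Lyz1 had lower means in elektra by 0.14 to 0.47 log2, and the other 6 lay within 0.05 log2 of no difference. The median log2 difference of the 10 genes, elektra minus wildtype, was -0.012, against 0.012 over all genes tested. In the authors' deposited table the p-values of the 10 genes, not adjusted, ranged from 0.0773 to 0.999.

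**Figure D1:**
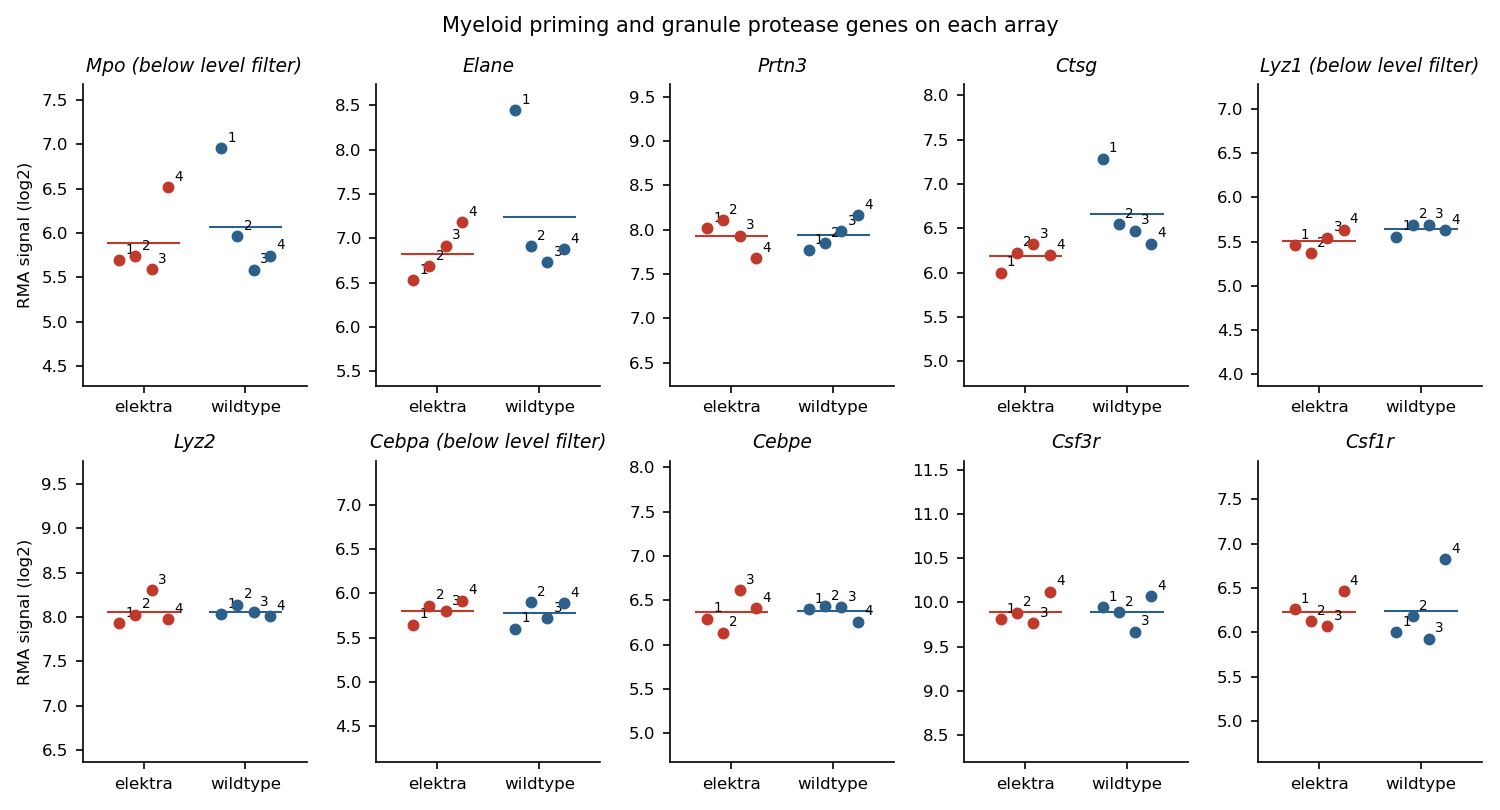
RMA signal (log2, vertical axis, each panel 3.4 units tall) of each of the 10 genes on the 4 elektra arrays (left, red) and the 4 wildtype arrays (right, blue). Points are arrays with their replicate numbers and lines are genotype means. Wildtype replicate 1 is highest for Mpo, Elane and Ctsg, at 6.96, 8.45 and 7.29, and not for Prtn3, where it is at 7.77.

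Elastase is the serine protease of azurophil granules that cleaves bacterial proteins and extracellular matrix. Elane read 6.53, 6.69, 6.92 and 7.18 on the elektra arrays and 8.45, 6.91, 6.73 and 6.87 on the wildtype arrays 1 to 4. Wildtype replicate 1 stood alone above all others, and the other 3 wildtype arrays lay inside the elektra range. The genotype means were 6.83 ± 0.28 in elektra and 7.24 ± 0.81 in wildtype (SD, n = 4 each), and the log2 difference was -0.41 (SE 0.33), with a 95% interval of -1.15 to 0.32 (limma adjusted p = 0.659). Without wildtype replicate 1 the wildtype mean was 6.84 ± 0.094 (SD, n = 3) and the difference was -0.010, with a 95% interval of -0.35 to 0.33 (limma adjusted p = 0.982).

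Mpo encodes the enzyme that makes hypochlorous acid in the phagosome and is a classical marker of myeloid commitment. Its signals were 5.69, 5.74, 5.60 and 6.52 in elektra and 6.96, 5.97, 5.59 and 5.74 in wildtype. An array of each genotype stood apart here, elektra replicate 4 and wildtype replicate 1, while the other 6 lay between 5.59 and 5.97. The means were 5.89 ± 0.43 in elektra and 6.06 ± 0.62 in wildtype (SD, n = 4 each), with a log2 difference of -0.18 and a 95% interval of -0.83 to 0.47 (limma adjusted p = 0.887, level filter not applied). The difference turned to 0.12 without wildtype replicate 1 and was -0.39 without elektra replicate 4, so the size and direction for Mpo were set by single arrays. Without both arrays it was -0.092.

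Cathepsin G, another serine protease of the same granules, had the difference of smallest p among the 10 genes. Ctsg read 6.00, 6.23, 6.33 and 6.20 in elektra and 7.29, 6.55, 6.47 and 6.33 in wildtype. The genotypes did not overlap, by a margin of only 0.00016 log2 between elektra replicate 3 and wildtype replicate 4, and Ctsg was the only one of the 10 genes for which they did not, where 6.26% of the genes tested, 2.37% as lower in elektra, showed no overlap (5.09% without the level filter). The means were 6.19 ± 0.14 in elektra and 6.66 ± 0.43 in wildtype (SD, n = 4 each), and the log2 difference was -0.47 (SE 0.19), or 1.38-fold lower, with a 95% interval of -0.88 to -0.056 (limma unadjusted p = 0.0296, adjusted p = 0.402). Without wildtype replicate 1 the difference was -0.26, with a 95% interval of -0.51 to -0.012 (limma adjusted p = 0.351), and it still passed at an unadjusted p. It did not pass there without elektra replicate 1 or elektra replicate 4.

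Prtn3 encodes proteinase 3 and is the next protein-coding gene to Elane in the RefSeq gene order of assembly GRCm38.p6, on chromosome 10. It read 8.02, 8.11, 7.93 and 7.68 in elektra and 7.77, 7.85, 7.98 and 8.16 in wildtype. The genotypes overlapped throughout, and wildtype replicate 1, the highest array for Elane, was the second lowest for Prtn3. The means were 7.93 ± 0.19 in elektra and 7.94 ± 0.17 in wildtype (SD, n = 4 each), and the difference of -0.0069 had a 95% interval of -0.28 to 0.26, that is 0.825-fold to 1.20-fold (limma adjusted p = 0.990). Its sign changed under several settings.

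The sequences before the start sites of these 4 protease and peroxidase genes are shown because 3 of the genes were high together on 1 array while Prtn3, the neighbour of Elane, was not. They are the 250 bases before the start site in RefSeq, build GRCm38.p6, 5′ to 3′ on the strand of the gene: chr10:79886062-79886311 (plus strand) for Elane, chr10:79879417-79879666 (plus) for Prtn3, chr11:87793534-87793783 (plus) for Mpo and chr14:56102575-56102824 (minus) for Ctsg. Capitals mark matches on either strand to short cores of factors of myeloid genes, namely GAGGAA for PU.1, TAACNG for Myb, TGTGGT for Runx and TTGCNNAA for C/EBP, which do not overlap each other in these windows.
Elane: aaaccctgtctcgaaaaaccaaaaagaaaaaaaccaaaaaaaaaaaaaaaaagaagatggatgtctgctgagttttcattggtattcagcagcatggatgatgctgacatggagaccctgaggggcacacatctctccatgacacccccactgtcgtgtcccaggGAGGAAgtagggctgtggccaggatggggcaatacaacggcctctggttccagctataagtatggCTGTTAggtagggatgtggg
Prtn3: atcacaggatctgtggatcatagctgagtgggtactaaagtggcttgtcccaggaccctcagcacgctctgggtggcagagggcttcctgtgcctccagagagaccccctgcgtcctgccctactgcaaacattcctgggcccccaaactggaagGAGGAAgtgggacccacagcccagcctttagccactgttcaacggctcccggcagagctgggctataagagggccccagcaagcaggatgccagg
Mpo: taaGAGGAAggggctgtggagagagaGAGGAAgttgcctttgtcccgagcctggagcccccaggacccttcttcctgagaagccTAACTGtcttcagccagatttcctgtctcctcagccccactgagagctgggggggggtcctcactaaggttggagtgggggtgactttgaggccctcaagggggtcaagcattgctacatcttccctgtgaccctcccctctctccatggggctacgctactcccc
Ctsg: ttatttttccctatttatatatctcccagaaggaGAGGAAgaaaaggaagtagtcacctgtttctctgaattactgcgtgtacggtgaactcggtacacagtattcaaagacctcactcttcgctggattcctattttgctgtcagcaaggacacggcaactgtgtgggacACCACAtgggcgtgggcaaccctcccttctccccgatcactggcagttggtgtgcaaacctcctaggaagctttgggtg
The PU.1 core was in all 4 windows, beginning 85 bases before the start site in Elane and 95 in Prtn3, and at 216 in Ctsg and 224 and 247 in Mpo. Of the 8 of these 10 genes whose windows were searched, 5 held it, against 23.3% of 32851 RefSeq windows of the same length. The Myb core was in the Elane and Mpo windows (19.8% of all windows), the Runx core in that of Ctsg and of Lyz2 (14%), and the C/EBP core in none of the 4 but in that of Lyz1 (9.56%). These are matches of letters, and binding was not measured.

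The lysozyme genes did not stand apart on wildtype replicate 1. Lysozyme cleaves bacterial cell walls, and in mice Lyz2 is the form of myeloid cells and Lyz1 that of Paneth cells of the gut. Lyz2 read 7.93, 8.03, 8.31 and 7.98 in elektra and 8.03, 8.14, 8.06 and 8.01 in wildtype, with elektra replicate 3 the highest and the others between 7.93 and 8.14. The genotype means were both 8.06, with SDs of 0.17 in elektra and 0.057 in wildtype (n = 4 each), and the 95% interval of the difference was -0.23 to 0.23 (limma adjusted p = 1.00). Lyz1 read 5.46, 5.37, 5.54 and 5.63 in elektra and 5.55, 5.69, 5.69 and 5.63 in wildtype, a difference of -0.14 (95% interval -0.35 to 0.067, limma adjusted p = 0.685, level filter not applied). Both sit next to each other on chromosome 10, and the 250 bases before their start sites were 78.8% identical in a global alignment, against 44.4% to 53.5% for the other 27 pairs among these genes. How far the probes of the array tell the paralogs apart was not tested.

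Neither C/EBP gene passed the test between the genotypes. Cebpa read 5.65, 5.86, 5.80 and 5.92 in elektra and 5.60, 5.90, 5.72 and 5.89 in wildtype, a difference of 0.026 (95% interval -0.21 to 0.26, limma adjusted p = 0.960, level filter not applied). Its lowest reading was on wildtype replicate 1, where Elane, Mpo and Ctsg were highest. Cebpe read 6.29, 6.14, 6.61 and 6.41 in elektra and 6.40, 6.44, 6.42 and 6.26 in wildtype, a difference of -0.016 (95% interval -0.27 to 0.23, limma adjusted p = 0.972). The 4 wildtype readings lay inside the elektra range.

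The receptor genes did not separate the genotypes either. Csf3r, whose product drives neutrophil production, read 9.81, 9.89, 9.77 and 10.12 in elektra and 9.94, 9.89, 9.67 and 10.07 in wildtype, with replicate 4 the highest of each genotype. The difference was 0.0021, with a 95% interval of -0.26 to 0.26, or 0.838-fold to 1.20-fold (limma adjusted p = 0.996). Csf1r, whose product drives the monocyte and macrophage lineage, read 6.26, 6.12, 6.07 and 6.46 in elektra and 6.00, 6.18, 5.93 and 6.83 in wildtype. Wildtype replicate 4 was the highest array and elektra replicate 4 the next. The difference of -0.0050 had a wider 95% interval, -0.41 to 0.40 (limma adjusted p = 0.994), and without wildtype replicate 4 it was 0.19.

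**Figure D2:**
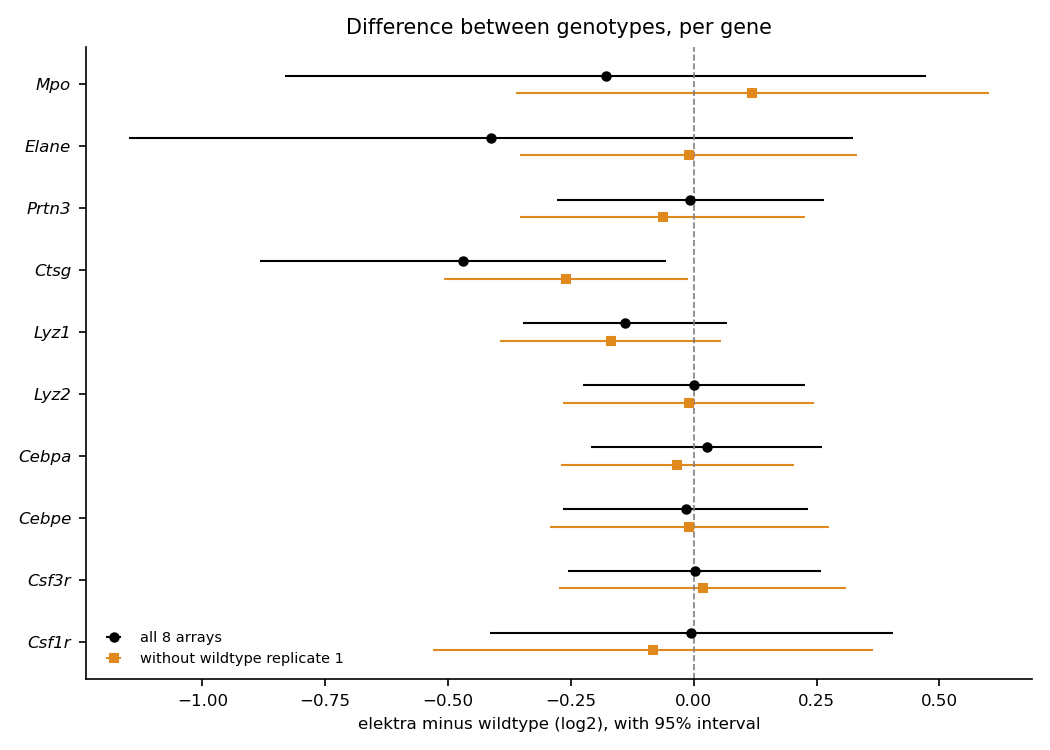
Log2 difference, elektra minus wildtype, for each gene (points) with its 95% interval from limma (bars), with all 8 arrays (black circles) and without wildtype replicate 1 (orange squares). The difference of Elane moves to -0.010 and that of Mpo to 0.12 without that array, and the intervals of all genes but Ctsg include 0 in both fits.

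Single arrays were compared as the signal minus the median of the other 7 arrays. On wildtype replicate 1, Elane lay 1.57 log2 (2.98-fold) above the other arrays, Mpo 1.22 (2.34-fold) and Ctsg 0.96 (1.94-fold). Only 5 of the 15710 genes tested deviated further upward on that array than Elane, 14 further than Mpo and 37 further than Ctsg. Mpo lay below the level filter and so is not among these genes. Its place among genes of signal as low as its own was not computed. The other 7 genes deviated there by -0.26 to 0.059. The array did not stand apart in general: 2.39% of genes tested lay more than 0.5 log2 above the other arrays on it, against 1.79% to 3.09% on the other 7 arrays, and its median deviation was -0.0016. Wildtype replicate 1 was the highest of the 8 arrays for 12.3% of genes tested.

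**Figure D3:**
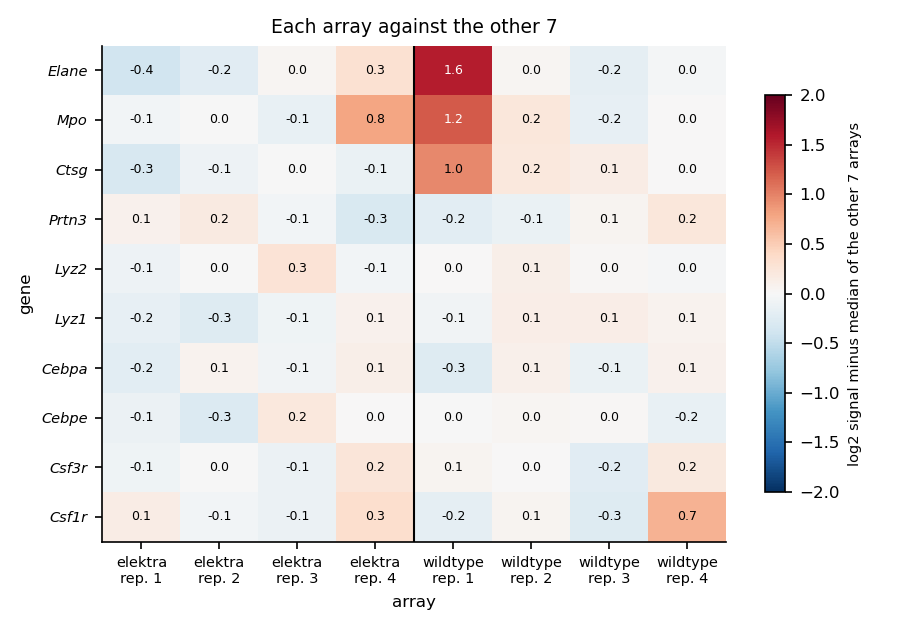
Signal of each gene on each array minus the median of the other 7 arrays (log2, colour and printed value), elektra arrays left of the line and wildtype arrays right of it. Elane, Mpo and Ctsg reach 1.57, 1.22 and 0.96 on wildtype replicate 1, Mpo 0.78 on elektra replicate 4 and Csf1r 0.70 on wildtype replicate 4.

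Beside these, 2 readings of the 10 genes lay over 0.5 log2 from the other arrays, Mpo on elektra replicate 4 (0.78) and Csf1r on wildtype replicate 4 (0.70). Among the 45 pairs of the 10 genes, Mpo and Elane had the largest Pearson r over the 8 arrays, 0.90 (exact permutation p = 0.00578, adjusted over the 45 pairs p = 0.260). Their Spearman rho was 0.64 (exact permutation p = 0.0962, adjusted p = 0.618). The Pearson r was 0.27 without elektra replicate 4 and wildtype replicate 1, the arrays farthest from the Mpo median, so the relation rests on those arrays. Elane and Ctsg followed (Pearson r = 0.90, exact permutation p = 0.0317, adjusted p = 0.357; rho = 0.48, exact permutation p = 0.243, adjusted p = 0.669), at -0.30 without elektra replicate 1 and wildtype replicate 1. Csf3r and Csf1r went together at r = 0.76 (exact permutation p = 0.0251, adjusted p = 0.357; rho = 0.67, exact permutation p = 0.0831, adjusted p = 0.618), and at 0.71 without elektra replicate 4 and wildtype replicate 3, the arrays farthest from the Csf3r median. Wildtype replicate 4, the highest array for Csf1r, stays in that value. By the exact permutation test, 0 of 45 pairs passed the adjusted threshold and 5 passed unadjusted by Pearson r. Among the 5 was a negative pair, Mpo and Prtn3 (r = -0.75, exact permutation p = 0.0307, adjusted p = 0.357). Its r was -0.28 without elektra replicate 4 and wildtype replicate 1. Of the 45 pairs, 25 had an r above 0. By rank, Mpo and Csf3r had the largest Spearman rho, 0.88 (exact permutation p = 0.00724, adjusted p = 0.326). Their Pearson r was 0.55, and 0.54 without elektra replicate 4 and wildtype replicate 1. The most negative rho was that of Elane and Prtn3, -0.79 (exact permutation p = 0.0279, adjusted p = 0.618). Their Pearson r was -0.59, and -0.79 without elektra replicate 1 and wildtype replicate 1.

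As a list, other genes grouped here as early granule genes did not follow Elane, Mpo and Ctsg on wildtype replicate 1. That list is broad and also holds the hexokinase gene Hk3. The mean signal of its 10 genes was 7.04 there, the lowest of the 8 arrays. It was 7.20 to 7.41 on the elektra arrays and 7.12 to 7.21 on the other wildtype arrays. On wildtype replicate 1, 0 of the 10 lay over 0.5 log2 above the other arrays and 2 lay that far below. Their median deviation was -0.19. Ms4a3, a gene of the same progenitors that is named here after its values were seen, was the one highest on wildtype replicate 1. It was at 6.81 there, 0.36 above the median of the other 7 arrays. Elektra replicates 4 and 3 were close to it, at 6.77 and 6.75. The mean of 15 late granule genes was 5.97 on wildtype replicate 1, again the lowest of the 8, and that of 13 monocyte and macrophage markers 6.08, also the lowest. Erythroid markers averaged 6.55 on that array, within the range of the other 7. The part of other cells in the reading of wildtype replicate 1 was not tested. In sorted bulk samples a change in the number of cells that carry a transcript and a change in its amount per cell cannot be told apart.

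On elektra replicate 4, by contrast, the late granule genes were high and Mpo with them. The mean of the 15 late granule genes was 7.00 on elektra replicate 4, against 6.01 to 6.10 on the other elektra arrays and 5.97 to 6.31 on the wildtype arrays. Of the 15, 10 were highest on that array and 7 lay over 0.5 log2 above the other arrays, where 10.2% and 2.43% of the genes tested did. Those shares cover only genes past the level filter, whereas 8 of the 15 lay below it, Camp and S100a8 among them. Ngp (neutrophilic granule protein) read 5.32, 6.08, 5.65 and 8.78 in elektra and 5.65, 6.12, 6.08 and 7.10 in wildtype, Camp (cathelicidin) 4.93, 5.39, 5.14 and 8.03 in elektra and 5.41, 5.05, 5.80 and 6.47 in wildtype, and S100a8 (a calprotectin subunit) 5.79, 5.01, 5.56 and 8.24 in elektra and 5.27, 5.90, 6.01 and 6.89 in wildtype. These 3 are named after their values were seen, and each was highest on elektra replicate 4 and second highest on wildtype replicate 4, the arrays on which Csf3r and Csf1r were highest too. Monocyte and macrophage markers averaged 6.51 on elektra replicate 4, against 6.17 to 6.28 on the other elektra arrays and 6.08 to 6.35 on the wildtype arrays, and erythroid markers 7.24, against 6.47 to 6.78 on the other elektra arrays and 6.52 to 6.78 on the wildtype arrays. Their part in the Mpo reading was not tested.

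**Figure D4:**
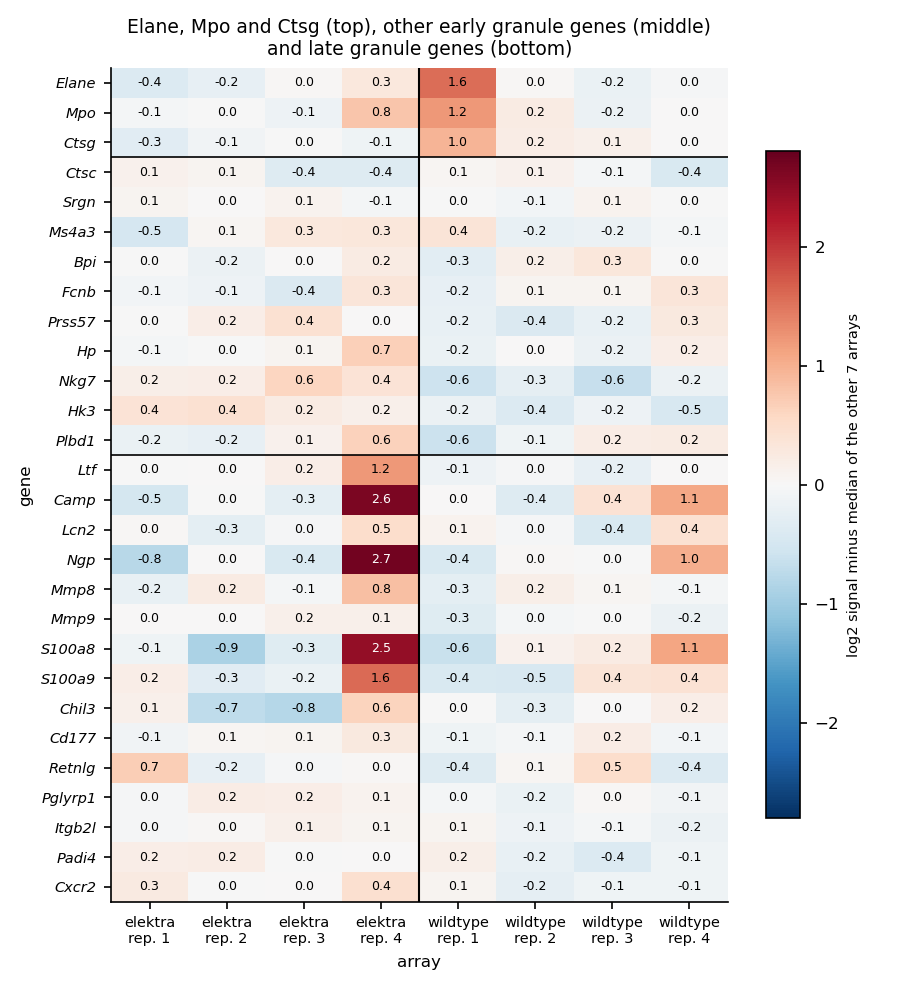
Signal of granule genes on each array minus the median of the other 7 arrays (log2, colour and printed value), elektra arrays left of the line. Elane, Mpo and Ctsg (top) are high on wildtype replicate 1, and late granule genes such as Ngp, Camp and S100a8 (bottom) on elektra replicate 4, where Elane is at 0.30 and Ctsg at -0.13.

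In the wider myeloid program, 0 of 58 genes tested in 6 lists passed the adjusted threshold with limma, and 6 were higher and 3 lower in elektra before adjustment (p of 0.05), against 7.02% and 3.95% of all genes tested. A further 19 genes of these lists lay below the level filter. The genotypes did not overlap for 8 of the 58, against 6.26% of all genes tested. Of 8 genes tested in the early granule list, 2 were higher and 0 lower before adjustment, namely Nkg7 and Hk3, with a median log2 difference of 0.18 over the 8. Nkg7, a granule membrane protein gene, read 8.18, 8.19, 8.61 and 8.39 in elektra and 7.61, 7.93, 7.53 and 8.01 in wildtype, a difference of 0.57 ± 0.14 (SE; limma adjusted p = 0.259). Its lowest elektra array exceeded its highest wildtype array, as was the case for Hk3, a hexokinase gene of myeloid cells, with 7.91, 7.95, 7.76 and 7.68 in elektra and 7.50, 7.30, 7.53 and 7.23 in wildtype (difference 0.44 ± 0.11, SE; limma adjusted p = 0.259). The serine protease gene Prss57 differed by 0.28 (limma adjusted p = 0.518) and its genotypes overlapped. Without elektra replicate 4 the median of the early granule list was 0.049, still with 2 higher and 0 lower before adjustment.

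Of 7 late granule genes tested, 1 was higher and 0 lower before adjustment, with a median log2 difference of 0.22. This median was -0.0011 without elektra replicate 4, and then 0 passed in either direction. Cxcr2, a neutrophil chemokine receptor gene, differed by 0.28 (limma adjusted p = 0.438), Padi4, which encodes the enzyme that citrullinates histones in neutrophils, by 0.23 (adjusted p = 0.516), and Pglyrp1, a peptidoglycan recognition gene, by 0.18 (adjusted p = 0.488). None of these 3 separated the genotypes on every array.

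In a list of 9 protease inhibitor genes, not all of them inhibitors of granule proteases, 0 passed the adjusted threshold with limma. Their differences went both ways. Serpinb1a encodes an inhibitor of elastase, cathepsin G and proteinase 3. It read 7.68, 8.07, 7.48 and 7.66 in elektra and 7.26, 6.99, 7.49 and 6.74 in wildtype, with wildtype replicate 3 above the lowest elektra array, and the difference was 0.60 ± 0.17 (SE; limma adjusted p = 0.308). Serpinb6a, whose product inhibits cathepsin G, read 7.30, 7.20, 7.28 and 7.16 in elektra and 7.53, 7.45, 7.50 and 7.35 in wildtype, a difference of -0.22 (limma adjusted p = 0.392). Cstb, which encodes the cysteine protease inhibitor cystatin B, read 8.12, 8.50, 8.23 and 8.44 in elektra and 8.56, 8.57, 8.61 and 8.64 in wildtype, a difference of -0.27 (limma adjusted p = 0.386). Both were lower on every elektra array than on any wildtype array. In the list of 9, 1 was higher and 2 lower before adjustment, with a median of -0.075, which was -0.0085 without elektra replicate 4, where 1 was higher and 1 lower.

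As a list, transcription factor genes of the myeloid lineage did not deviate on wildtype replicate 1, with a median deviation of 0.076 over 14 genes. Spi1 and Klf4 lay over 0.5 log2 above the other arrays there and Gfi1 that far below, as did no other gene of the list. They were also the genes of smallest p, a p that drew on this array too. Spi1, which encodes PU.1, read 7.62, 7.89, 7.53 and 7.66 in elektra and 8.34, 7.90, 7.92 and 7.72 in wildtype, highest on wildtype replicate 1. Gfi1, which encodes a repressor needed for granulocyte development, read 7.06, 6.64, 6.91 and 6.69 in elektra and 5.96, 6.37, 6.58 and 6.68 in wildtype, lowest on wildtype replicate 1. Klf4, a factor of monocytes that is also an early-response gene, read 7.54, 7.50, 8.95 and 7.24 in elektra and 8.79, 7.92, 9.46 and 7.76 in wildtype, and was highest on replicate 3 of each genotype, the arrays of low Xist (5.06 in elektra and 5.37 in wildtype, against 10.26 to 10.79 on the other 6), and then on wildtype replicate 1. Their log2 differences were -0.30 ± 0.14, 0.43 ± 0.16 and -0.67 ± 0.43 (SE; limma adjusted p = 0.465, 0.386 and 0.575, in that order). Of 13 factors tested, 1 was higher and 0 lower before adjustment, with a median of -0.033. Without wildtype replicate 1, 0 passed in either direction, with a median of -0.067.

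Among 16 genes of cytokine receptors and signalling, 1 was lower and 0 higher before adjustment, with a median of 0.018. Csf2ra, which encodes the alpha chain of the receptor for granulocyte-macrophage colony-stimulating factor, was at -0.20 (limma adjusted p = 0.465) and Csf2rb2, which in mice encodes the beta chain specific to interleukin 3, at 0.24 (adjusted p = 0.474). Without wildtype replicate 1, 1 gene of the list was higher and 2 lower before adjustment, with a median of 0.029. Of 5 monocyte and macrophage markers tested, 1 was higher and 0 lower, with a median of -0.0095. That one was Ms4a6c, at 0.69 ± 0.23 (SE; limma adjusted p = 0.359), which read 8.22, 8.35, 8.45 and 8.21 in elektra and 7.50, 7.11, 8.42 and 7.44 in wildtype, where replicate 3 lay among the elektra readings. The fractalkine receptor gene Cx3cr1 was at -0.38 (adjusted p = 0.5) and the endosomal marker gene Cd68 at 0.12 (adjusted p = 0.817). Without elektra replicate 4 the marker median was -0.017, and without wildtype replicate 1 it was -0.0058 with 1 higher and 1 lower.

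**Figure D5:**
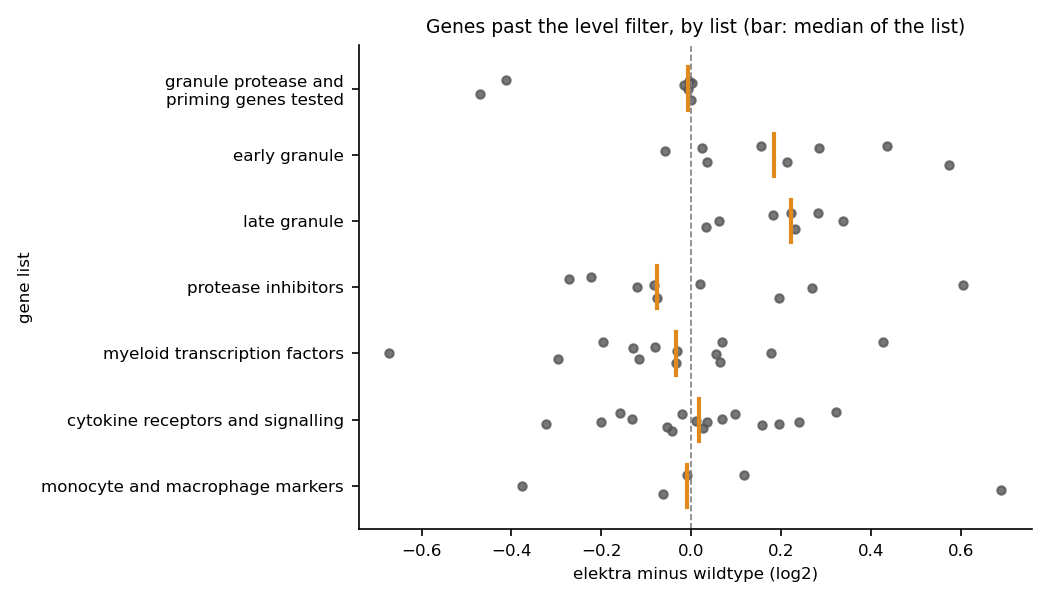
Log2 difference, elektra minus wildtype, of each gene past the level filter (points) in the 7 tested granule protease and priming genes and in 6 lists of myeloid genes, with the median of each list (orange bar). The medians of the early and late granule lists are at 0.18 and 0.22, and the other medians lie between -0.075 and 0.018.

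The named genes outside the 10 whose signals over the 8 arrays were most like those of Mpo, among 15703 genes tested, were Becn1, an autophagy gene (Pearson r = 0.97), Cuedc1 (0.95), Pomt2 (0.95), Natd1 (0.94) and the oligosaccharyltransferase subunit gene Ostc (0.94). They were chosen by this r, which is given as a description over 8 arrays. Without wildtype replicate 1 and elektra replicate 4 it was 0.88, 0.89, 0.64, 0.72 and -0.61 in the same order. Ostc, for example, was at 9.20 on wildtype replicate 1, and the other 7 arrays read 8.70 to 8.96.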

How the data were processed

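Per the labels' protocols, about 200 pg of total RNA per sample was amplified with 12 cycles of PCR, labelled and hybridised to Affymetrix arrays. The deposited log2 signals were made by the authors with RMA in Affymetrix Expression Console 1.4 (per the submitters' processing notes). The annotation and any feature filter were not given in the sources used here. Besides the signals, the deposited workbook holds, per the file headers, the authors' genotype means, log2 ratio, signed fold change and unadjusted p-value.

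Of 33793 features, 32074 with 1 symbol were used, and the feature of highest mean was kept per symbol. Genotypes were compared as elektra minus wildtype, two-sided and without covariates, by limma (version 3.58.1, functions lmFit and eBayes, under R 4.3.3) over the 15710 genes past the level filter, with Benjamini-Hochberg adjustment over all genes tested. The exact permutation tests of correlations used all 40320 pairings. The fit was tested on simulated data. Arrays carry no read depth. Their number limits precision but does not alone set it, and the standard errors of the 10 genes ranged from 0.094 to 0.33. Over all genes tested, a log2 difference had a median standard error of 0.12. Every gene was named by the rule (the 10 genes, Slfn2, the 3 genes of smallest p in each myeloid list and the 5 genes most like Mpo), except where the text says otherwise. A gene that the rule names is not reported here. The 10 genes, the lists and the alternatives were chosen with earlier results of these data known. The alternatives are given at the end. The other marker lists served to check the cell type: stromal and endothelial markers passed the level filter for 5 of 7 genes, megakaryocyte markers for 6 of 7 and erythroid markers for 3 of 6 measured.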

Additional observations from a re-analysis of the deposited data

Results flagged for a closer look

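Among the 34 genes named by the rule, 6 of 68 groups of 4 arrays (8.82%) held an array whose gap to the nearest other was a larger share of the range than Dixon's criterion allows, where chance gives about 5%. Elane was at 8.45 on wildtype replicate 1, with the other wildtype arrays between 6.73 and 6.91. Mpo was at 6.52 on elektra replicate 4, with the other elektra arrays between 5.60 and 5.74. Csf2rb2 was at 7.96 on wildtype replicate 4, below the other wildtype arrays at 8.36 to 8.43. Becn1 was at 7.42 and Pomt2 at 8.50 on elektra replicate 4, with the other elektra arrays at 7.29 to 7.31 and 8.36 to 8.38, and Ostc was at 9.20 on wildtype replicate 1, with the other wildtype arrays at 8.70 to 8.76. Becn1, Pomt2 and Ostc were chosen for their likeness to Mpo, so their outlying arrays are those of Mpo by choice. Mpo and Ctsg on wildtype replicate 1 did not meet the criterion, with gaps of 0.724 and 0.773 of the range.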

How the results depend on the processing

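Over 19 alternatives, 0 of the 10 genes passed the adjusted threshold in any, with a lowest adjusted p of 0.341. Elane, Ctsg and Lyz1 kept a lower mean in elektra throughout. Leaving out each array in turn, the log2 difference ranged from -0.39 to 0.119 for Mpo (above 0 only without wildtype replicate 1), -0.0651 to 0.0787 for Prtn3, -0.0813 to 0.0427 for Lyz2, -0.0332 to 0.079 for Cebpa, -0.0994 to 0.0595 for Cebpe, -0.0729 to 0.0617 for Csf3r and -0.107 to 0.192 for Csf1r. Other settings turned the sign of differences near 0, and the cause was not tested. With quantile normalization the values were -0.0575 for Lyz2, 0.0306 for Cebpe, -0.0558 for Csf3r and 0.031 for Csf1r. With arrays centred on their medians they were 0.0421 for Prtn3, 0.0328 for Cebpe and 0.0441 for Csf1r. With array weights they were 0.00546 for Prtn3, -0.0188 for Lyz2 and 0.001 for Csf1r, and without the arrays of low Xist, which are replicate 3 of both genotypes, 0.00785 for Prtn3, -0.0824 for Lyz2 and -0.0305 for Csf3r. Without wildtype replicate 1 and elektra replicate 4, a setting chosen after seeing the data, they were 0.0227 for Prtn3, -0.0702 for Cebpa and -0.0562 for Csf3r. Csf1r kept its sign there, at -0.161, and 0 of the 10 genes passed at an unadjusted p. That count was 1 in the main analysis, 0 to 1 with each array left out, and 0 with quantile normalization, with centred arrays or with the stricter level filter, at the upper quartile, where fewer of the 10 genes were left. Of all genes tested, 6 passed the adjusted threshold in the main analysis, 0 to 4 with each array left out, 0 without wildtype replicate 1 and elektra replicate 4, 2 without the arrays of low Xist, 3 with centred arrays or without the level filter, 13 with the stricter filter and 18 with trend and robust in eBayes. With replicate number as a block, 0 passed and the differences were the same. Same-numbered samples correlated at 0.14, 0.024, 0.13 and -0.0017 in their deviations from the genotype means. Samples of different numbers correlated at -0.22 to 0.14. The labels give no pairing, and these values cannot settle whether the numbers pair the samples. The excess of Elane, Mpo and Ctsg on wildtype replicate 1 was 1.55 to 1.69, 1.20 to 1.26 and 0.96 to 1.06 under quantile normalization, centring and the series table, settings added after seeing the data.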
